A study of Mus musculus with 4 samples.

Results

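Endothelial cells without a Gpihbp1 transcript were taken from the subcutaneous adipose tissue (SAT) of mice bearing prostate tumor grafts. A cell was a member if it had at least 200 genes, at least 2 unique molecular identifiers (UMIs, each standing for 1 captured RNA molecule) summed over the endothelial genes Pecam1, Cdh5, Egfl7 and Cldn5, and at least 2 of these 4 genes detected. Gpihbp1, the leukocyte genes Ptprc, Cd79a and Cd3e, the fibroblast gene Dcn and the smooth muscle gene Myh11 all had to be at 0. The members were thus chosen by their measured UMI counts of these 10 genes, which are not used as results. The rule kept 109 of 2841 cells of the control library and 28 of 1897 cells of the D-CAN library, 137 of 4738 SAT cells and of 8986 cells in the series. Endothelial cells that met the same gate with 2 or more Gpihbp1 UMIs, 153 in the control and 89 in the D-CAN library, served for comparison.

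Both libraries held stromal/vascular fraction (SVF) cells of SAT from FVB mice (written VFB in the labels) that had been fed chow and grafted under the skin with MycCaP, a prostate cancer cell line from HiMyc mice. The control mice received PBS and the treated mice D-CAN, a peptide directed at adipose stromal cells. Dead cells and red blood cells had been removed before the 10x 3′ capture. Each group was 1 library, how many mice it holds is not given in the sources used here, and no test of treatment was possible, so that every interval below is a 95% interval that covers counting error only.

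GPIHBP1 is the protein with which capillary endothelial cells bind lipoprotein lipase and carry it to the lumen, where the enzyme releases fatty acids for the adipocyte. Larger vessels carry less of it: venular cells bear the adhesion molecules and von Willebrand factor through which leukocytes and platelets attach, arterial cells depend on Notch signalling and gap junctions, and lymphatic cells on the transcription factor Prox1. High endothelial venules are the vessels of lymph nodes through which lymphocytes enter from blood, and Glycam1 encodes a sulfated ligand of L-selectin made there. In GRCm38, Gpihbp1 (ENSMUSG00000022579) lies on chromosome 15 from 75596628 to 75599481 on the plus strand, and Glycam1 (ENSMUSG00000022491) on the same chromosome from 103562759 to 103565081 on the minus strand.

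The members differed in depth between the libraries. A control member had a median of 900 UMIs and a D-CAN member 3656, against 2211 and 4339 in the Gpihbp1 >= 2 cells. Of the 109 control members 49 reached 1000 UMIs, and of the 28 D-CAN members 27 did. The control members summed to 195940 UMIs, of which 1 cell gave 24910, and the D-CAN members to 118180. Median mitochondrial shares were 3.57% and 6.40% of UMIs. The libraries shared 2 cell barcodes, neither of them a member. At the lower edge of the rule, 26 control and 2 D-CAN members held exactly 2 UMIs of the 4 endothelial genes, while 69 and 17 cells with 1 UMI, and 71 and 18 cells with 1 Gpihbp1 UMI, fell just outside.

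Members were a smaller share of the D-CAN library than of the control library. They made up 3.84% (3.16 to 4.61) of control cells and 1.48% (0.983 to 2.13) of D-CAN cells, a difference of -2.36 percentage points (-3.28 to -1.42). Among cells with at least 1000 UMIs the shares were 2.54% (1.89 to 3.35) and 1.59% (1.05 to 2.30). With 3 of the 4 endothelial genes required they were 1.83% (1.37 to 2.39) and 1.11% (0.687 to 1.69). In both settings the D-CAN share was lower but the intervals overlapped. The Gpihbp1 >= 2 cells made up 5.39% (4.58 to 6.28) and 4.69% (3.78 to 5.74), a difference of -0.69 points (-1.97 to 0.63). Among endothelial cells of the gate, whatever their Gpihbp1, members were 32.7% (27.7 to 38.1) in the control and 20.7% (14.2 to 28.6) in the D-CAN library. That gap moved with depth: among gated cells with at least 1000 UMIs the shares were 24.0% (18.3 to 30.5) and 21.6% (14.7 to 29.8), a difference of -2.42 points (-11.8 to 7.60). A Gpihbp1 count of 0 in a shallow cell and a lack of the transcript cannot be told apart.

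Members carried the transcripts of venous endothelium at several times the level of the Gpihbp1 >= 2 cells, in both libraries. Ackr1, the chemokine-binding receptor of venules, was at 439 CPM (UMIs of the gene scaled to a total of 1000000 UMIs, 351 to 542, 86 UMIs in 20 of 109 cells) in control members and 423 (314 to 558, 50 UMIs in 9 of 28 cells) in D-CAN members, against 12.96 and 45.3 CPM in Gpihbp1 >= 2 cells. Its log2 ratio of members over Gpihbp1 >= 2 cells was 4.99 (3.98 to 6.44) in the control and 3.21 (2.50 to 3.98) in the D-CAN library. Leukocytes of the same libraries, which should lack the transcript, had 0 and 3 Ackr1 UMIs in 1017 and 996 cells. They were cells with a Ptprc UMI and no UMI of the 4 endothelial genes, Dcn or Myh11. Droplets with free RNA of those endothelial genes were thus left out, so that this set can understate free RNA of endothelium. The Ackr1 intervals of members and Gpihbp1 >= 2 cells did not overlap in either library.

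Vwf, which encodes von Willebrand factor, was at 413 CPM in control and 626 CPM in D-CAN members, with log2 ratios of 3.68 (2.95 to 4.56) and 3.95 (3.27 to 4.73). Selp, the P-selectin gene, was at 408 and 770 CPM, with ratios of 2.86 (2.26 to 3.53) and 3.51 (2.95 to 4.11). Sele, the E-selectin gene, was at 230 and 186 CPM, with ratios of 4.51 (3.30 to 6.32) and 4.54 (3.12 to 6.68), from 9 and 7 cells, of which 1 held 44.4% and 59.1% of the UMIs. Both selectins slow leukocytes on the vessel wall, and each was higher in members of either library by more than its counting interval. Lrg1, a secreted glycoprotein gene of venules, had the most UMIs of the venous list, at 1016 and 1633 CPM in members and 139 and 236 CPM in Gpihbp1 >= 2 cells.

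Of the 12 venous genes listed, 11 had at least 20 UMIs over members and Gpihbp1 >= 2 cells in each library. A gene is called higher or lower here when its ratio was at least 2-fold in the same direction in both libraries. Of the 11 genes, 9 were higher (Ackr1, Vwf, Selp, Sele, Nr2f2, Lrg1, Vcam1, Cpe and Bgn), none was lower, and Ephb4 and Aplnr passed neither way. The minimum counts both sets together, and Ackr1, Vwf, Selp and Sele reached it through the members alone, Sele with 45 and 22 UMIs. The list was chosen with earlier results of these data known, so that the count is a description. Cpe rested on few cells, since 25 of its 38 control UMIs lay in 2 Glycam1-high cells and 18 of its 23 D-CAN UMIs in 2 venous cells. Over all 4521 genes compared, 133 were higher, which is 2.94%, and 193 were lower, which is 4.27%. The median log2 ratio of the venous list was 2.86 in the control and 3.21 in the D-CAN library, beside -0.03 and -0.10 over all genes. Only 12 genes, 0.265%, passed 2-fold in opposite directions in the 2 libraries. Without the control member of 24910 UMIs, 9 of 11 were again higher. Among cells without any UMI of 14 markers of leukocytes, fibroblasts and mural cells, 4 venous genes could still be compared and 2 were higher. Tagln, itself higher in members, is among these markers.

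**Figure D1:**
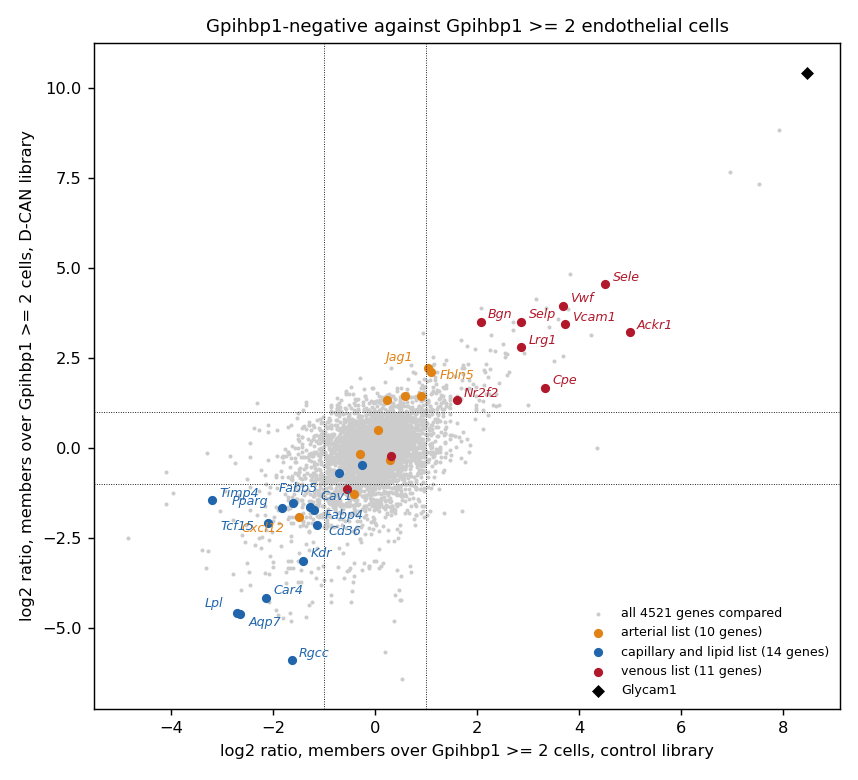
Log2 ratio of summed CPM, members over Gpihbp1 >= 2 cells, in the control library (horizontal) and in the D-CAN library (vertical) for 4521 genes, with the venous, arterial and capillary lists coloured and dotted lines at 2-fold. Of the venous list 9 of 11 genes lie past both lines at the upper right, and of the capillary and lipid list 12 of 14 at the lower left.

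The stretches just upstream of Selp and Sele, the P- and E-selectin genes, are shown because both are among those that were higher together in members and because Nr2f2 (COUP-TFII), a transcription factor of venous identity that binds AGGTCA half-sites, was itself higher, at 276 and 338 CPM against 90.7 and 136 CPM. The letters AGGTCA were searched on both strands, as were TGACTCA, the motif of the AP-1 factors, an NF-kB motif and CACGTG, the E-box. Each stretch is the 250 bases before the gene start from RefSeq (GRCm38.p6), with the match in capitals. Selp is at chr1:164115014-164115263 on the plus strand, with TGACCT, the reverse complement of AGGTCA. Sele is at chr1:164047984-164048233 on the plus strand, with TGACTCA.
Selp: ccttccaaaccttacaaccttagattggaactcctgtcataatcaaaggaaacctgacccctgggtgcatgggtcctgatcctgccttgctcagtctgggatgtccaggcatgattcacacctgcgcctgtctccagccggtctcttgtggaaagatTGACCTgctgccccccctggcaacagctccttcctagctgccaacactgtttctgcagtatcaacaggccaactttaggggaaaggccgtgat
Sele: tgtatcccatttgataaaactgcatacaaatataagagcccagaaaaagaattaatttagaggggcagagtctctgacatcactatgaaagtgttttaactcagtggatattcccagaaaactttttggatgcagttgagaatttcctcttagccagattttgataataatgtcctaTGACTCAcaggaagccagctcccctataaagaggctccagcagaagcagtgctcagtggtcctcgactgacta
Over 32851 promoter windows that also hold the first bases of the gene, 16.3% contained AGGTCA and 5.2% TGACTCA on either strand. Of 19 venous and high endothelial venule genes with a window in the table used here, 4 held AGGTCA, 2 held TGACTCA, 2 held the NF-kB motif (1.63% of all windows) and 1 held CACGTG (7.15%). The last 2 motifs were not found in the Selp or Sele window. Other forms of the NF-kB site were not searched, so that their absence is not shown. The matches are letters in a window, and binding was not measured.

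Of 11 adhesion genes compared, 4 were higher, of which Vcam1, Sele and Selp also stand in the venous list. Vcam1, the ligand of the leukocyte integrin VLA-4, was at 327 CPM in control and 220 CPM in D-CAN members, against 24.1 and 19.95 CPM in Gpihbp1 >= 2 cells. Icam1, the ligand of the integrin LFA-1, had log2 ratios of 1.61 (1.10 to 2.13) and 1.43 (0.89 to 1.95). It was the 1 higher gene of the 8 adhesion genes outside the venous list, and Icam2, Cd34, Podxl, Jam2, Jam3, F11r and Cd99l2 passed neither way. Plvap, which forms the diaphragms of endothelial caveolae and fenestrae, was at 2092 and 1870 CPM, with ratios of 1.98 (1.76 to 2.21) and 1.10 (0.86 to 1.33). It was the only 1 of 13 further pan-endothelial genes to pass 2-fold in both libraries, and the other 12, among them Tie1, Tek, Eng and Emcn, passed neither way.

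Genes by which capillaries take up and handle fatty acids were lower in members. Fabp4, the fatty acid binding protein of capillaries, was at 18148 CPM (17557 to 18755) in control and 12794 CPM (12157 to 13456) in D-CAN members, against 41460 and 42177 CPM in Gpihbp1 >= 2 cells. Its log2 ratio was -1.19 (-1.24 to -1.14) and -1.72 (-1.80 to -1.65). Lpl, the lipoprotein lipase gene, fell further, with ratios of -2.71 (-3.29 to -2.22) and -4.57 (-6.34 to -3.48). The fatty acid translocase gene Cd36 had ratios of -1.13 (-1.30 to -0.97) and -2.12 (-2.41 to -1.86). Of 14 capillary and lipid handling genes compared, 12 were lower (Cd36, Fabp4, Fabp5, Rgcc, Car4, Kdr, Timp4, Tcf15, Lpl, Aqp7, Pparg and Cav1), none was higher, and Meox2 and Sgk1 passed neither way. The medians were -1.62 and -1.90. Without cells that held a UMI of the 14 markers of other types, 8 of 14 were lower, and with every cell reduced to 500 UMIs 3 of the 10 that could be compared. Since the members were chosen for lacking the capillary gene Gpihbp1, a lower level of genes that go with it in capillaries is near to what the rule selected.

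**Figure D2:**
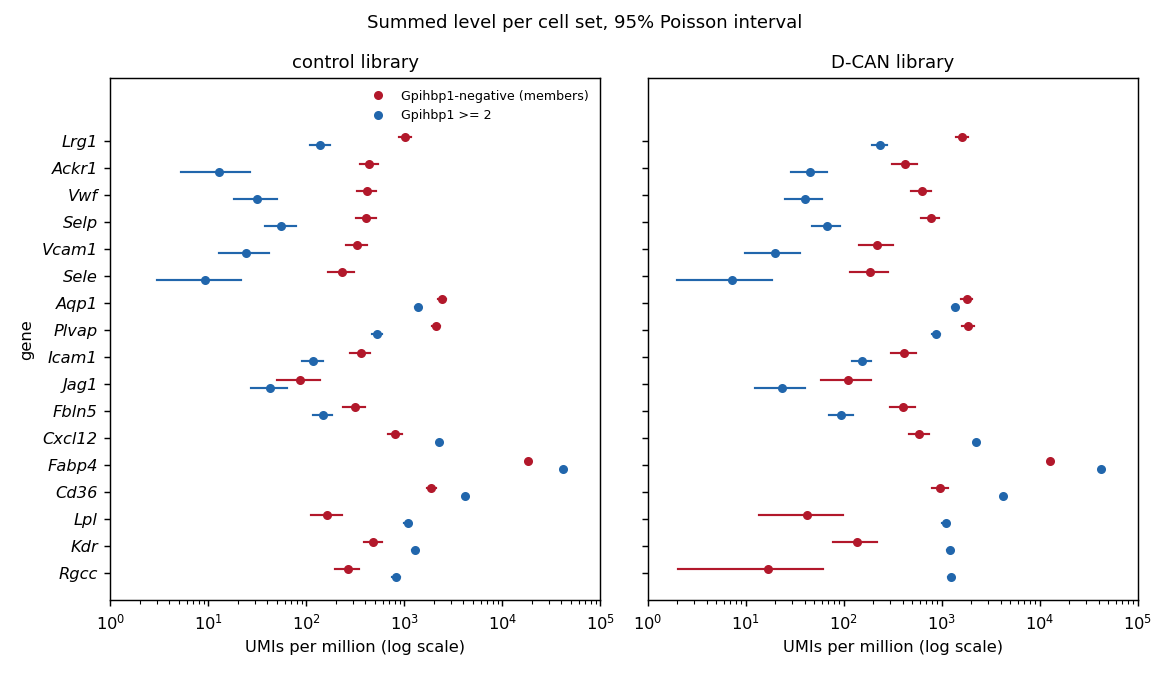
Summed level in CPM (log scale) of 17 genes in members and in Gpihbp1 >= 2 cells of each library, with 95% Poisson intervals. The venous genes at the top lie higher in members, the fatty acid and capillary genes at the bottom lie higher in Gpihbp1 >= 2 cells, and Aqp1 differs least.

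The lower Fabp4 was seen across members. Fabp4 took a median of 1.84% of the UMIs of a control member (0 to 6.02%) and 1.16% of a D-CAN member (0 to 3.36%). In Gpihbp1 >= 2 cells the medians were 3.88% and 4.42%, and in cells with exactly 1 Gpihbp1 UMI they lay between, at 2.74% and 1.96%. At least 3% of UMIs was reached by 23 of 109 and 2 of 28 members, against 113 of 153 and 60 of 89 Gpihbp1 >= 2 cells. The ranges of the sets overlapped. Fabp4 was detected in most members and few leukocytes, since 867 of 1017 control and 856 of 996 D-CAN leukocytes had none, and 4 and 3 members had none. The leukocytes were chosen without endothelial genes and can understate free RNA of endothelium.

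**Figure D3:**
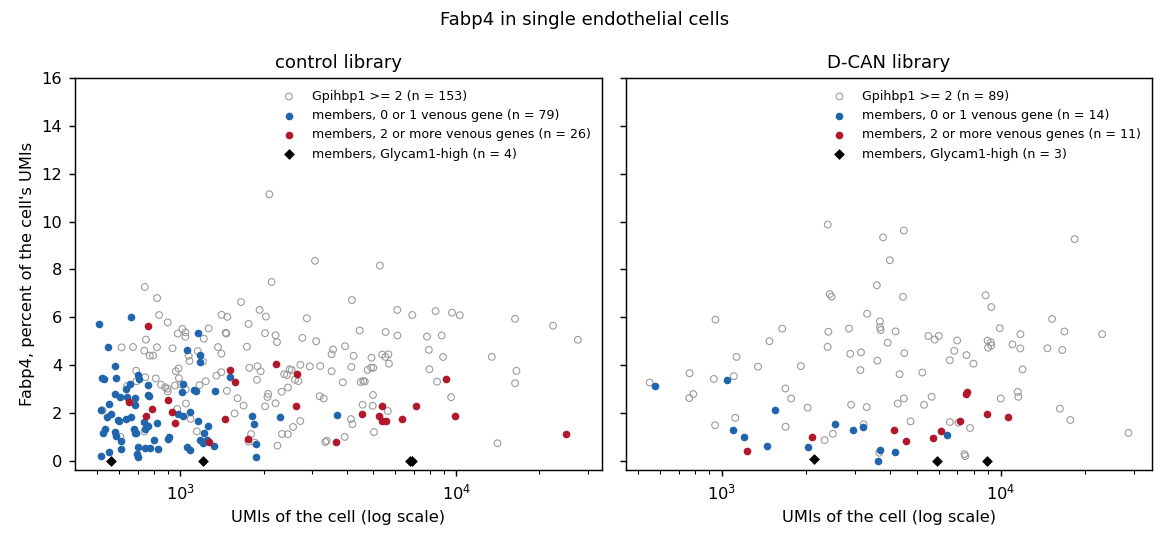
Fabp4 as a percent of the UMIs of each cell against the total UMIs of the cell (log scale), for Gpihbp1 >= 2 cells (open) and for members split by venous genes and Glycam1. Most members lie under 3%, the Glycam1-high members lie at or near 0, and the control members with 0 or 1 venous gene lie mostly under 1000 UMIs.

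Some chemokine, VEGF and matrix genes were lower. Cxcl12, the ligand of CXCR4, was at 806 and 592 CPM in members and 2255 and 2260 CPM in Gpihbp1 >= 2 cells, with log2 ratios of -1.48 (-1.73 to -1.24) and -1.92 (-2.30 to -1.58). Cxcl9, an interferon-induced ligand of CXCR3, fell from 268 and 227 CPM to 45.9 and 16.9 CPM, so that of the 4 chemokine and scavenger receptor genes compared 2 were lower and Ackr1 was higher. Of 7 VEGF, angiopoietin and TIE genes, the VEGF receptor gene Kdr and its co-receptor gene Nrp1 were lower. Of 11 basement membrane genes, Col4a1, Col4a2 and Hspg2 were lower. None of these VEGF or basement membrane genes was higher.

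The lymphotoxin receptor gene Ltbr and the NF-kB inhibitor gene Nfkbia were higher among 5 genes of that pathway, with Nfkbia at 1332 and 1625 CPM against 480 and 642 CPM. Of 16 immediate early and heat shock genes Ier3 was higher, and of 12 interferon response genes Gbp4 and Rsad2 were lower. None of 9 MHC class I genes passed 2-fold in both libraries. The MHC class II genes H2-Ab1 and Cd74, both of 2 compared, were higher, but in the D-CAN library 24 of the 33 Cd74 UMIs came from 1 cell. Of the 25 H2-Ab1 UMIs of D-CAN members 12 lay in 1 cell without a venous gene and 11 in 2 Glycam1-high cells. In the control library the B cell markers, at 332 against 168 CPM, and the T and NK markers, at 515 against 79.6 CPM, were also above Gpihbp1 >= 2 cells, and their part in the class II values was not tested. Among 4 transport genes the prostaglandin transporter gene Slco2a1 was higher, and among 8 Notch genes Jag1 was higher.

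The genes with the highest ratios by the naming rule were Glycam1, Mgp, Cytl1, Ccl20, Sele, Clu, Lbp, Vwf, Pdia5, Vcam1, Serpina3n and Lgals3. Several of them rested on few cells. Of the Clu UMIs 143 of 203 in control and 133 of 190 in D-CAN members lay in Glycam1-high cells, defined below. Of the Ccl20 UMIs 21 of 22 and 21 of 21 did. In the other members Clu was at 333 and 563 CPM, against 72.2 and 56.2 CPM in Gpihbp1 >= 2 cells. Mgp, an inhibitor of vascular calcification, had 43 UMIs in 9 control and 145 UMIs in 6 D-CAN members, of which 1 cell held 57.2%, against 0 and 1 UMI in Gpihbp1 >= 2 cells. Cytl1, a secreted cytokine-like protein gene, had 33 UMIs in 2 and 86 UMIs in 6 members. Lbp, which encodes the lipopolysaccharide binding protein, had 32 and 29 UMIs in 10 and 8 members, and Serpina3n, a serine protease inhibitor gene, 36 and 36 UMIs in 17 and 9. The lowest were Gm12002, Abcb1b, Prag1, Art3, Lpl, Aqp7, Adora2a, Chek2, Terf1, Slc26a10, Cxcl9 and Itgb5. All but Lpl, Aqp7 and Cxcl9 had at most 3 UMIs in the members of either library, so that their ratios are set mainly by the Gpihbp1 >= 2 cells.

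The venous transcripts belonged to a fraction of the members. With at least 2 genes detected of Ackr1, Vwf, Selp, Sele, Nr2f2, Ephb4 and Lrg1, 28 of 109 control members (25.7%, 17.8 to 34.9) and 13 of 28 D-CAN members (46.4%, 27.5 to 66.1) were venous by this count. Among Gpihbp1 >= 2 cells, which were deeper, 25 of 153 (16.3%, 10.9 to 23.2) and 24 of 89 (27.0%, 18.1 to 37.4) were. The venous members include 2 control and 2 D-CAN Glycam1-high cells, described below. With every cell reduced at random to 1000 UMIs, and 60 and 1 shallower members omitted, the shares were 30.6% (18.3 to 45.4) and 33.3% (16.5 to 54.0) of members against 6.50% (2.85 to 12.4) and 2.44% (0.297 to 8.53) of Gpihbp1 >= 2 cells. The intervals overlapped as counted and did not overlap at equal depth. Without cells that held a UMI of another type's marker, the shares as counted were 16.4% and 23.1% of members against 14.1% and 22.6% of Gpihbp1 >= 2 cells. Tagln is among those markers. It was detected in 15 of 26 control and 9 of 11 D-CAN venous members that were not Glycam1-high, so that this filter removed many venous members. Cells with exactly 1 Gpihbp1 UMI were venous in 7 of 32 (21.9%, 9.28 to 39.97) and 5 of 16 cases (31.2%, 11.02 to 58.7) at that depth. Among leukocytes 1 of 871 and 0 of 896 cells met the count.

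**Figure D4:**
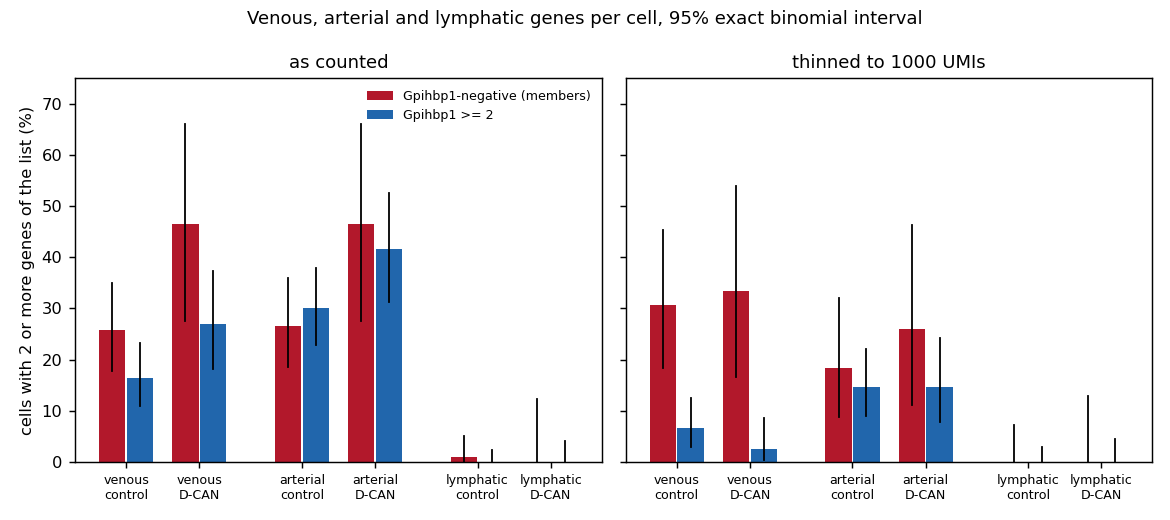
Percent of cells with at least 2 genes of the venous, arterial or lymphatic list, as counted (left) and after thinning to 1000 UMIs (right), for members and Gpihbp1 >= 2 cells of each library with exact binomial intervals. At equal depth the venous shares of members (30.6% and 33.3%) lie above those of Gpihbp1 >= 2 cells, the arterial shares overlap, and the lymphatic shares are at 0.

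Within the members Aqp1, the water channel gene proposed as a mark of these cells, went with the venous genes and not with the members as a whole. It was at 2424 CPM (2211 to 2652) in control and 1802 CPM (1568 to 2061) in D-CAN members, against 1379 and 1373 CPM in Gpihbp1 >= 2 cells, so that its ratios of 0.81 and 0.39 did not reach 2-fold. Of its 475 UMIs in control members 443 lay in the 26 venous members that were not Glycam1-high, and of 213 in D-CAN members 208 lay in 11 such cells. All 11 of those D-CAN cells and 23 of the 26 control cells had an Aqp1 UMI. In the deepest control member alone Aqp1 had 170 UMIs.

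The 26 and 11 venous members held further transcripts that the count had not used, and are set here against members without a venous gene, Glycam1-high cells left aside in both. Plvap was at 3137 and 2987 CPM, Emcn at 731 and 670 CPM and Icam1 at 527 and 625 CPM in them. Igf1, the gene of insulin-like growth factor 1, had 53 UMIs in 16 and 25 UMIs in 9 of these cells, and 1 UMI in all members without a venous gene. Eln, the elastin gene, had 49 UMIs in 14 and 26 UMIs in 9 of them, but also 6 UMIs in 4 D-CAN members with arterial and no venous genes. Fgl2, a secreted fibrinogen-like protein gene that also stands in the wider lymphatic list, had 26 UMIs in 10 and 15 UMIs in 7 venous members and none in members without a venous gene. Lbp was likewise at 0 there. Serpina3n was at 0 there too, and at 259 and 366 CPM in the venous members, but was higher in the Glycam1-high cells, at 516 and 707 CPM. Tagln, a contractile gene of mural cells, was at 759 and 686 CPM in the venous members and at 915 and 89.1 CPM in members with arterial and no venous genes. These genes were chosen after their values were seen, and the venous members, with medians of 2425.5 and 6092 UMIs, were deeper than the rest.

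Some members carried arterial genes, and 7 control and 5 D-CAN members met both the venous and the arterial count. At least 2 of Gja4, Gja5, Hey1, Sox17, Bmx, Sema3g, Efnb2 and Stmn2 were detected in 29 of 109 control (26.6%, 18.6 to 35.9) and 13 of 28 D-CAN members (46.4%, 27.5 to 66.1), and in 46 of 153 (30.1%, 22.9 to 37.996) and 37 of 89 (41.6%, 31.2 to 52.5) Gpihbp1 >= 2 cells. Thinned, the shares were 18.4% (8.76 to 32.0) and 25.9% (11.1 to 46.3) of members and 14.6% (8.91 to 22.1) and 14.6% (7.80 to 24.2) of Gpihbp1 >= 2 cells. These intervals overlapped, so that a difference in arterial share was not detectable at this depth. Of 10 arterial genes compared, Jag1, a Notch ligand gene, and Fbln5, an elastic fibre gene, were higher, Cxcl12 was lower, and the other 7 passed neither way.

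In 17 control and 7 D-CAN members at least 2 arterial genes came with no venous gene. Fbln5, which that choice had not used, was at 915 and 1069 CPM in them, against 296 and 274 CPM in the venous members and 129 CPM in the 46 control members with no venous and at most 1 arterial gene. The 5 such D-CAN members had no Fbln5 UMI, which allows up to 380 CPM by 3 counts of the total. Aqp1 was at 108 CPM in the control cells and at 0 of 22458 UMIs in the D-CAN cells. By 3 counts of the total that 0 allows up to 134 CPM. Plvap was at 700 and 89.1 CPM. Fabp4 was at 16201 and 10375 CPM, against 19635 and 17600 CPM in the venous members.

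Members with no venous and at most 1 arterial gene, Glycam1-high cells left aside, were mostly shallow control cells. There were 46 in the control library, with a median of 691 UMIs, and 5 in the D-CAN library, with a median of 1201. The control cells held Cxcl12 at 1553 CPM, Kdr at 984 CPM, Rgcc at 673 CPM and Lpl at 595 CPM, each above its level in the venous control members (509, 268, 46.3 and 37.0 CPM). They also held transcripts of other cells: 78 of the 91 UMIs of Ccl5, a chemokine gene of T and NK cells, in 9 cells, and 104 of the 224 UMIs of the hemoglobin gene Hbb-bs in 5 cells. Of the 5 D-CAN cells, 1 with 3624 UMIs held all 33 UMIs of the myeloid adaptor gene Tyrobp and 24 of Cd74, without Fabp4.

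Lymphatic genes were nearly absent. With at least 2 of Prox1, Lyve1, Mmrn1, Pdpn and Reln, 1 of 109 control members and 0 of 28 D-CAN members were found, the latter of which allows a share of up to 10.7% by 3 counts of the total and 12.3% by the exact interval. Over all SAT cells with 200 genes, 1 control and 2 D-CAN cells met the count. Prox1, the lymphatic transcription factor gene, had 5 UMIs in 2 control and 4 UMIs in 2 D-CAN members, and Lyve1, a hyaluronan receptor gene, 1 UMI in each library. None of the 10 genes of the wider lymphatic list reached the minimum for a ratio against Gpihbp1 >= 2 cells, and between treatments Fgl2 alone did and passed neither way. The control member with 2 lymphatic genes was also Glycam1-high. Just outside the rule, 1 of 18 D-CAN cells with a single Gpihbp1 UMI met the lymphatic count and held 26 Prox1 UMIs.

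Glycam1 did not mark the members as a whole. It was detected in 5 of 109 control and 3 of 28 D-CAN members, although its summed level was 1618 and 8597 CPM. It made up at least 0.5% of the UMIs of 4 control and 3 D-CAN members, called Glycam1-high here, and of no cell with a Gpihbp1 UMI in the gate. Of the 1016 UMIs in D-CAN members 1 cell held 875. In the members Glycam1 thus took values from 0.891% to 10.9% of a cell's UMIs in these 7 cells, and 0 or 1 UMI in all others. Leukocytes, chosen without endothelial genes, had a Glycam1 UMI in 6 of 1017 and 27 of 996 cells and at most 1 and 2 UMIs in a cell.

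The 7 Glycam1-high members were of 2 kinds. In 3 of them, control cell 1 and D-CAN cells 1 and 2, Glycam1 took 10.9%, 9.81% and 4.13% of UMIs. These 3 cells alone held UMIs of Fut7 (2, 2 and 1) or Chst4 (1, 3 and 0), whose enzymes complete the fucosylated and sulfated sugars that L-selectin binds. They also held Tagln, with 11, 12 and 5 UMIs. In the other 4 cells Glycam1 took 1.48%, 1.13%, 0.891% and 0.896%, with no UMI of Chst4, Fut7 or Tagln. Each of those 4 had 2 UMIs of Madcam1, the gut-homing addressin gene, and Ccl20, the ligand of CCR6, had 17, 3, 1 and 21 UMIs in them.

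**Figure D5:**
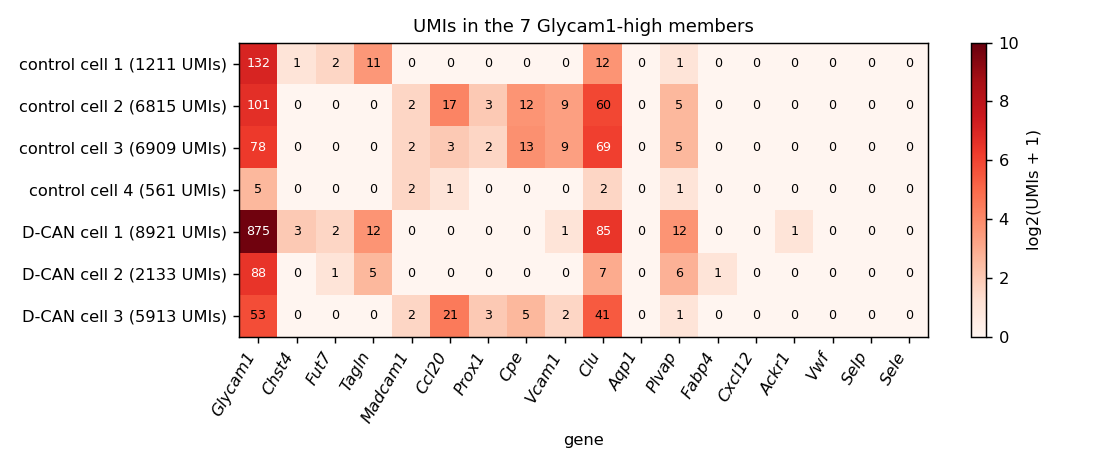
UMIs of 18 genes (columns) in the 7 Glycam1-high members (rows), coloured by log2(UMIs + 1). Fut7 and Tagln are above 0 in control cell 1 and D-CAN cells 1 and 2, Madcam1 and Ccl20 in the other 4 cells, and Aqp1, Vwf, Selp and Sele are at 0 in all 7.

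The 3 deeper cells of the second kind also held Prox1, with 3, 2 and 3 UMIs, and Cpe, a carboxypeptidase gene, with 12, 13 and 5. Vcam1 had 9, 9 and 2 UMIs in them. Clu, which encodes the chaperone clusterin, had 60, 69 and 41 UMIs there and 85 in D-CAN cell 1. The genes compared in this paragraph and in the plot of the 7 cells were partly chosen after their values were seen, and with 4 and 3 cells no ratio is more than a description of those cells.

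The Glycam1-high members held some venous genes and lacked others. The venous count was met by 2 of the 4 control and 2 of the 3 D-CAN cells, with Lrg1 at 645 and 2652 CPM and Nr2f2 at 387 and 236 CPM over the Glycam1-high cells. Control cells 2 and 3 and D-CAN cell 3 met it by Lrg1 and Nr2f2 alone, and these are the cells that also held Prox1. D-CAN cell 1 met it by Lrg1 and 1 Ackr1 UMI. Whether such cells are venous was not tested. Aqp1, Vwf, Selp, Sele and Cxcl12 had no UMI in any of the 7 cells, whose summed UMIs came to 15496 and 16967, and Fabp4 had 1. In the other members of the control and D-CAN libraries Vwf had 81 and 74 UMIs and Selp 80 and 91. By the same fold in both libraries 24 of 791 genes were higher in Glycam1-high than in other members, which is 3.03%, and 172 were lower, which is 21.7%. Since the other members held most of the UMIs, a gene reached the minimum mainly through them, and the count of lower genes says nothing about the Glycam1-high cells. The higher genes included Ccl20, Clu, the prion protein gene Prnp, the NADPH oxidase gene Cyba, the lysosomal protease gene Ctsl, H2-Q7 and B2m. The lower genes included Fabp4, Aqp1, Ptprb, Fabp5, Cxcl12 and Flt1, each at 0 in the 4 control cells. The label's markers Glycam1 and Aqp1 were thus not found together in any Glycam1-high member.

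Between the libraries, no venous gene passed 2-fold, and 3 capillary genes were lower in D-CAN members. Among 2504 genes with at least 20 UMIs over the members of both libraries, 83 were at least 2-fold higher with D-CAN, which is 3.31%, and 138 were lower, which is 5.51%. The same 2504 genes gave 34 (1.36%) higher and 25 (0.998%) lower in Gpihbp1 >= 2 cells. Those cells held 540118 and 551348 UMIs, more than the members, and the genes were filtered on members, so that the counts of the 2 sets are not comparable. With a minimum of 50 UMIs, 18 and 25 of 871 genes passed in members. The D-CAN and control values of each set come from the same 2 libraries, and with 1 library a group the spread between animals is unknown. Of 11 venous genes 0 passed 2-fold either way, with a median log2 ratio of 0.30. Of 12 capillary and lipid genes Rgcc, Kdr and Lpl were lower and Timp4 was higher, 21 of its D-CAN UMIs lying in 1 Glycam1-high cell and 1 in the other members, with a median of -0.51 in members and 0.03 in Gpihbp1 >= 2 cells.

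Rgcc, a cell cycle regulator gene of capillaries, had 52 UMIs in 32 control members and 2 UMIs in 2 D-CAN members, a log2 ratio of -3.66, beside 0.59 in Gpihbp1 >= 2 cells. Kdr had 94 UMIs in 46 and 16 UMIs in 13 members, a ratio of -1.79, beside -0.07. The 46 control members with no venous and at most 1 arterial gene held Rgcc and Kdr at 673 and 984 CPM. The 5 such D-CAN members had no Rgcc UMI, which allows up to 380 CPM by 3 counts of the total. Their Kdr was at 253 CPM. In members with arterial and no venous genes Rgcc was at 754 and 44.5 CPM and Kdr at 484 and 134 CPM. Venous members had 5 and 0 Rgcc UMIs, and Kdr at 268 and 122 CPM. The part of these classes of cells in the differences was not tested. The other lower genes by the naming rule were Tcim, Rflnb, Cbx3, Pak2 and Gja1, with ratios between -1.69 and -1.59.

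The genes with the steepest fall were those of other cells. Hbb-bs went from 1143 to 25.4 CPM and Hba-a1 from 1021 to 25.4 CPM, in 9 and 7 control cells, while in Gpihbp1 >= 2 cells Hbb-bs was at 792 and 2492 CPM. Ccl5 went from 91 UMIs in 13 cells to 1. The higher genes were Mgp, Glycam1, Cytl1, Apold1, Gm8797, Pdia3, Sox18, Id2, Tmem252 and Ccnl1. The first 3 rest on few cells each, as given above, and for Id2 1 cell held 47.5% of the 61 UMIs of D-CAN members. Apold1, an immediate early gene of endothelium, was at 112 and 296 CPM in members and 74.1 and 149 CPM in Gpihbp1 >= 2 cells, and Sox18, an endothelial transcription factor gene, at 102 and 262 CPM and at 196 and 404 CPM. The log2 ratios of D-CAN over control in members and in Gpihbp1 >= 2 cells were 1.39 (0.59 to 2.24) and 0.997 for Apold1 and 1.35 (0.50 to 2.25) and 1.04 for Sox18.

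Markers of other cell types were present in about as many members as not. Any UMI of 14 such markers was found in 54 of 109 and 15 of 28 members, and in 61 of 153 and 36 of 89 Gpihbp1 >= 2 cells. The 10 mural markers summed to 1082 and 558 CPM in members and 181 and 229 CPM in Gpihbp1 >= 2 cells. Tagln was the most abundant of them, with 126 UMIs in 30 and 64 UMIs in 12 members and log2 ratios of 4.24 (3.55 to 5.07) and 3.12 (2.51 to 3.78), and it was the 1 mural gene that was higher of 2 compared. Whether these UMIs came from mural cells in the same droplets was not tested, and Myh11 was 0 by the rule.

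The 8 B cell markers summed to 332 and 50.8 CPM in members, led by Igkc, and the 8 T and NK markers to 515 and 16.9 CPM, led by Ccl5. Myeloid markers came to 71.5 and 288 CPM, fibroblast markers to 66.3 and 33.8 CPM and adipocyte markers to 153 and 152 CPM. Of the adipocyte markers Cfd and Car3 were both lower than in Gpihbp1 >= 2 cells, where the list summed to 504 and 597 CPM. Red cell and platelet markers came to 2378 and 127 CPM. Epithelial, mesothelial and glial markers had 0 and 1 UMI. The 8 cycling markers had 24 and 8 UMIs, and none reached the minimum for a ratio.

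The high endothelial venule list held little beside Glycam1. Of 6 genes compared, Glycam1, the sulfotransferase gene Chst2 and the sphingosine 1-phosphate transporter gene Spns2 were higher, and St3gal6, Enpp2 and Ubd passed neither way. Chst2 had 14 and 8 UMIs and Spns2 26 and 20 UMIs in members. Spns2 had no UMI in the 7 Glycam1-high members, whereas the 6 and 3 UMIs of Ubd all lay in them, as did 8 of 18 and 5 of 5 UMIs of Enpp2. Chst4, Fut7, Gcnt1, B3gnt3, Madcam1 and Ccl21a had too few UMIs for a ratio, at most 6 in the members of either library.

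Cells of the MycCaP grafts passed through the same gate gave a few endothelial cells without Gpihbp1, 20 of 88 (22.7%) in the control and 12 of 57 (21.1%) in the D-CAN tumor. Over all gated tumor cells Glycam1 had no UMI in 278224 and 266026 UMIs. This allows up to 10.8 and 11.3 CPM by 3 counts of the total, and 13.3 and 13.9 CPM by the exact interval. Ackr1 had 0 and 16 UMIs, Vwf 2 and 20 and Sele 9 and 9 UMIs there. Lrg1 was at 316 and 590 CPM and Fabp4 at 10639 and 13330 CPM. The tumor and SAT libraries were separate preparations, and tissue and preparation cannot be told apart.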

How the data were processed

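The authors sequenced 10x 3′ libraries, and the submitters' processing notes name Cell Ranger 3.1.0, STAR 2.6 and the mm10 genome. The header of the SAT D-CAN file names Cell Ranger 3.0.2 and that of the SAT control file 3.1.0, and the effect of this difference was not tested. The deposited values are UMI counts per gene and barcode, not normalized, with 6667064 counts in 2851 control and 7444729 counts in 1922 D-CAN SAT barcodes. Cells with at least 200 of the 31053 genes were kept. No doublet caller was run. Counts were summed over the cells of a set and divided by their total UMIs (CPM), and log2 ratios were formed after adding 0.5 UMI. A ratio needed 20 UMIs over both sets in each library. Genes named by size between treatments had at least 50 UMIs over the members of both libraries, and some of those named against Gpihbp1 >= 2 cells had fewer. The 12 highest and 12 lowest genes against Gpihbp1 >= 2 cells, ranked by the ratio nearer 0 of the 2 libraries, and the 10 each way between treatments were named, beside the list genes. Exact Poisson and Clopper-Pearson intervals were used. With 1 library per group no test was made. Thinning drew 1000 UMIs per cell. Scripts were tested on simulated data. The members and gene lists were chosen with earlier results of these data known. Gene positions are from GENCODE for GRCm38.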

Additional observations from a re-analysis of the deposited data

Results flagged for a closer look

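Rgs5, a pericyte gene, was 1 of 2 mural genes with enough UMIs for a ratio of members over Gpihbp1 >= 2 cells, and its ratio had opposite signs in the 2 libraries, at a log2 ratio of 1.36 in the control and -1.81 in the D-CAN library. It had 39 UMIs in 17 control members and 1 UMI in 1 D-CAN member. It was 1 of 12 genes, 0.265% of 4521, with 2-fold differences in opposite directions, and the difference between the libraries was not tested.

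Cells with at least 0.5% of UMIs from Glycam1 also lay outside the endothelial gate, 11 in the control and 1 in the D-CAN library. Of the 11 control cells, whose median was 642 UMIs, 2 had no UMI of the 4 endothelial genes, 6 had 1 and 3 had 2 or more. They are outside the members only by the count of endothelial or excluded genes, and entered none of the comparisons above.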

How the results depend on the processing

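Over 18 alternatives, 3 of them chosen after seeing the data, 50 of 261 values moved. A share is said to move when it leaves the counting interval of the main setting, which is wide for few cells. A count of genes is said to move past a set fold, whatever the number of genes tested. The share of members in control cells was 3.11% with 500 genes per cell and 1.83% with 3 of the 4 endothelial genes. It was 1.94% without other-type markers, 2.54% with 1000 UMIs and 7.20% of cells without Ptprc. In D-CAN cells it was 0.685% without other-type markers and 4.37% of cells without Ptprc. The D-CAN share stayed inside its main interval (0.983 to 2.13) with 500 genes (1.60%), 3 of the 4 endothelial genes (1.11%) or 1000 UMIs (1.59%). The D-CAN share was below the control share in each setting. Intervals of the libraries overlapped with 3 of the 4 genes, with 1000 UMIs and among cells without Ptprc. They did not overlap with 500 genes or without other-type markers. Genes higher and lower than in Gpihbp1 >= 2 cells numbered 46 and 108 of 2384 without other-type markers, 50 and 112 of 2002 with a minimum of 50 UMIs, and 6 and 12 of 375 after thinning to 500 UMIs, beside 133 and 193 of 4521. Between treatments they numbered 54 and 56 of 731, 18 and 25 of 871, and 36 and 47 of 427, beside 83 and 138 of 2504. Fewer genes were tested in each of these settings. The venous share of control members was 39.1% with 500 genes, 16.4% without other-type markers, 42.9% with 1000 UMIs and 15.6% when 3 genes were needed, and that of D-CAN members 23.1% without other-type markers, where Gpihbp1 >= 2 cells were at 14.1% and 22.6%. The arterial share of control members was 35.9% with 500 genes, 38.5% with 3 of the 4 endothelial genes, 18.4% thinned and 10.1% when 3 genes were needed, and of D-CAN members 25.9% thinned. The lymphatic share was 0 thinned and when 3 genes were needed. The causes were not tested. No paired analysis was possible because each group has 1 library, and for the same reason no replicate could be left out.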
